A study of Mus musculus with 9 samples.

Results

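Hippocampal subfields were read here through 10 marker genes measured in whole mouse hippocampus. Prox1, C1ql2 and Dsp stood for the dentate gyrus, Wfs1, Fibcd1 and Mpped1 for CA1, Bok for CA3, and Pcp4, Rgs14 and Amigo2 for CA2. They were picked by gene name, and all 10 were found once each among the 54532 genes of the table. Bulk RNA was sequenced from 3 groups of 3 samples each, from C57BL/6 mice, and the Con labels give the genotype as WT. The Con group was kept on standard food and the HMD group on food high in methionine. The Bet+HMD group is labelled as high-methionine feeding combined with betaine. Feeding is recorded as 8 weeks in each group. The labels give the mice as male and 6 to 8 weeks old at purchase, whereas the study's methods describe female mice. Betaine was given at 2.5% (w/v) in drinking water for 2 weeks, and whether the high-methionine food went on during those weeks is not given in the sources used here. The Bet+HMD labels give the strain as C57BL/6, C57BL/7 and C57BL/8, 1 per sample, and the columns named COL were read as the Con samples.

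The hippocampal circuit runs from granule cells of the dentate gyrus, through mossy fibres, to CA3 pyramidal cells and on to CA1, with the small CA2 field between CA3 and CA1. Each field holds a main type of excitatory neuron with its own set of genes, and such genes serve as landmarks when the fields are dissected or imaged. CA2 is known for its part in social memory and for weak long-term potentiation, and granule cells of the dentate gyrus include neurons born in adult life. In whole tissue, fewer cells of a field and less RNA per cell cannot be told apart.

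Between 16031464 and 18566712 reads per sample were assigned to genes, as recovered from the deposited values. A first table held Con and HMD, and a later table held the same 6 samples with Bet+HMD added. The FPKM of the markers in the 6 shared samples differed between the tables by a ratio of 0.995 to 1.04. The Bet+HMD samples occur in the later table alone, so betaine and the handling of those samples cannot be told apart. They also lay closer together than the others, as the scaled chi-square of their reads was 3.00 to 4.21 for pairs of Bet+HMD samples and 11.8 to 42.2 for pairs within Con or HMD, where 1 would be sampling noise alone. Summed FPKM of 6 genes of hippocampal pyramidal and granule cells was 1501 to 1634 in Con, 1245 to 1502 in HMD and 1206 to 1248 in Bet+HMD. These genes are also strong in excitatory neurons of neocortex, so the sum does not separate hippocampus from neighbouring cortex.

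The positions below are those of the deposited table (mm10) and span each whole gene. The dentate markers are Prox1 at chr1:190118035-190170714 (-), C1ql2 at chr1:120340582-120343174 (+) and Dsp at chr13:38151294-38198577 (+). The CA1 markers are Wfs1 at chr5:36966104-36989205 (-), Fibcd1 at chr2:31813290-31846005 (-) and Mpped1 at chr15:83779467-83858494 (+), and the CA3 marker is Bok at chr1:93685660-93695764 (+). The CA2 markers are Pcp4 at chr16:96467606-96525793 (+), Rgs14 at chr13:55369732-55384687 (+) and Amigo2 at chr15:97244125-97247287 (-).

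The regulatory sequence just before the start of 3 markers is shown because these genes stand for the range of outcomes below. Pcp4 and Fibcd1 fell in Bet+HMD and Prox1 did not pass the test. The windows are the 250 bases before a RefSeq gene start (GRCm38.p6), and windows of 9 of the 10 markers were matched, all but Rgs14. Capitals mark the E-box CAGATG, the cAMP response element half-site TGACG and the TATA motif TATAAA, each on either strand. The Pcp4 window lies at chr16:96467356-96467605 (+), the Fibcd1 window at chr2:31846006-31846255 (-) and the Prox1 window at chr1:190170828-190171077 (-).
Pcp4: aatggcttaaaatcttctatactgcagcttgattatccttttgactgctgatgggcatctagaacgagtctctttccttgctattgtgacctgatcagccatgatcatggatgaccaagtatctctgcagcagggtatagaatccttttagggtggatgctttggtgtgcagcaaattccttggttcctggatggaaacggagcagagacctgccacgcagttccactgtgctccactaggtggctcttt
Fibcd1: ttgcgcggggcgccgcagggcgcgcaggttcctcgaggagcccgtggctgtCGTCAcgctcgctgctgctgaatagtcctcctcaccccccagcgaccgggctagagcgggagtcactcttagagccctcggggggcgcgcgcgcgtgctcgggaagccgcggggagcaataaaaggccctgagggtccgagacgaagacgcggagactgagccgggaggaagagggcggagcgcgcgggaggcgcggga
Prox1: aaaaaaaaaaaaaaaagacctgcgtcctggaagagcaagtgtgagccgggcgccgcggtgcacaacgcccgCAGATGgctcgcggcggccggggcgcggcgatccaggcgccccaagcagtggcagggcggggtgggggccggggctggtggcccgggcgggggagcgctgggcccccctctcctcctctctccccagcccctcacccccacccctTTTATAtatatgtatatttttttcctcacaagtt

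The Pcp4 window held 3 CpG dinucleotides and 46.8% G or C, the lowest of the 9 windows, against medians of 6 and 52.4% over 32851 windows of all genes. Fibcd1 had 34 CpG and 71.6% G or C, and Prox1 had 20 and 64.8%. TGACG was present once before Fibcd1 and in no other marker window, and 17.8% of all windows held it. CAGATG occurred once before Prox1 and once before the RefSeq start of Wfs1, and 14.4% of all windows held it. The RefSeq start used for Wfs1 lies 223 bases inside the deposited gene, and its match lies within the gene. For Mpped1 the start lies 556 bases inside, so its whole window lies within the gene. TATAAA occurred once, before Prox1, and 12.4% of all windows held it. CAGCTG and the full element TGACGTCA (which contains the half-site) were found in no marker window on either strand, against 13.0% and 1.55% of all windows. These matches describe letters in the windows.

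Levels of the markers in Con were compared as FPKM, read counts divided by gene length and library size. Mpped1, a CA1 gene, had the highest mean, 55.5 ± 6.87 FPKM (SD, n = 3), and its samples lay above those of every other marker. Below it came Fibcd1 at 35.1, Wfs1 at 34.6, Bok at 30.2, C1ql2 at 23.7, Rgs14 at 21.6 and Pcp4 at 18.4, and each of these overlapped its neighbour in the order. Prox1 at 14.4, Amigo2 at 8.55 and Dsp at 5.15 lay at the bottom, each apart from its neighbours. In Bet+HMD, Mpped1 and Wfs1 stood at the top, followed by C1ql2, Prox1 and Fibcd1, each apart from its neighbours. Bok at 9.38 ± 0.720 and Rgs14 at 9.16 ± 0.691 came next and overlapped. Pcp4 was last at 4.03 ± 1.07 and overlapped Amigo2, which overlapped Dsp.

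**Figure D1:**
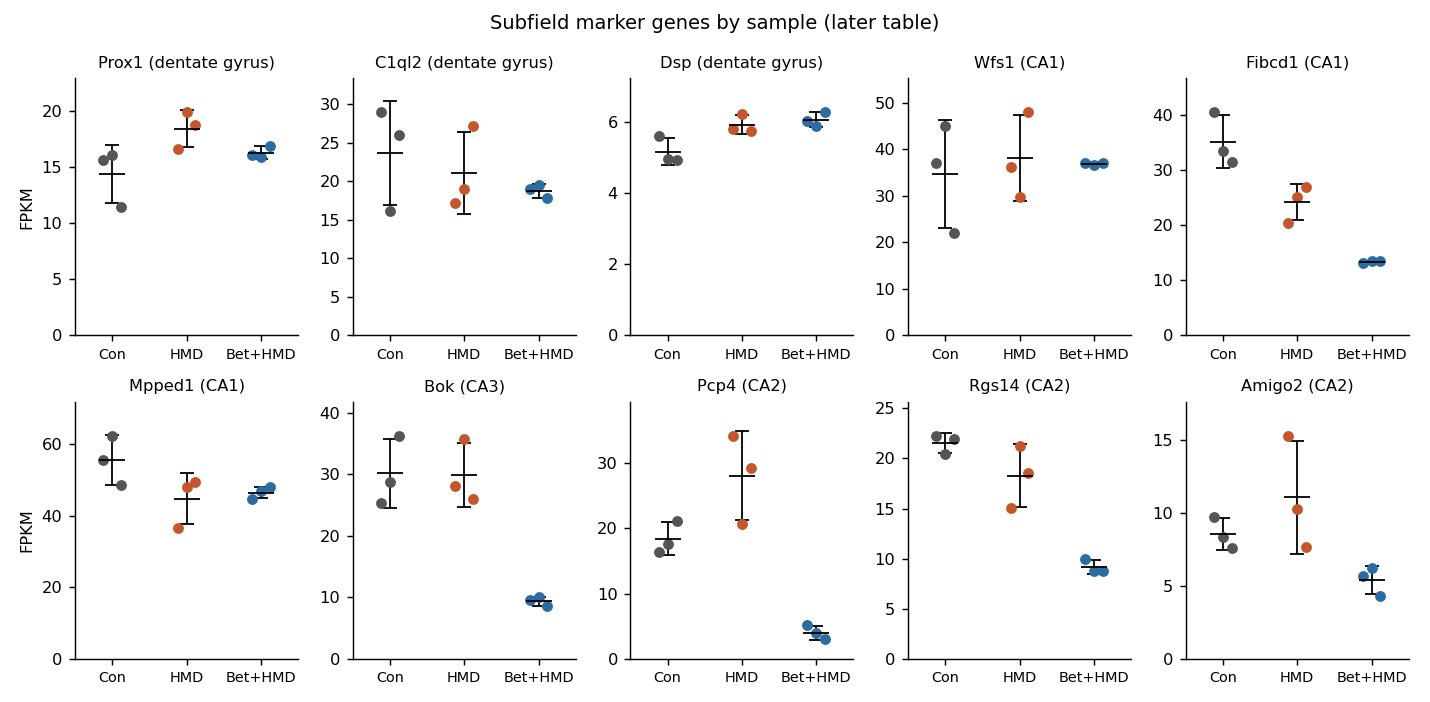
FPKM (vertical axis, from 0) of the 10 markers in the 9 samples of the later table, by group; points are samples and bars are the mean ± SD (n = 3). Bok, Pcp4, Rgs14, Fibcd1 and Amigo2 lie lower in all 3 Bet+HMD samples than in any other sample, whereas Wfs1 and Mpped1 in Bet+HMD lie within or close to the range of the other groups.

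HMD was set against Con to ask whether the diet moved the markers, with limma on log2(FPKM + 1) over 12989 genes in the first table. None of the 10 markers passed an adjusted p of 0.05, where 0% of all genes did (0 called genes, smallest adjusted p 0.124, and 592 genes at an unadjusted p under 0.05). Log2 fold changes were positive for 5 markers and negative for 5, with a median of 0.08 against -0.00 over all genes. Con and HMD samples were fully separate for 3 of the 10 markers, Fibcd1, Prox1 and Dsp, and for 9.37% of all genes.

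Among the CA1 markers, Fibcd1, which encodes a membrane receptor that binds acetylated sugars such as chitin, was 40.0, 32.9 and 30.6 FPKM in Con and 20.3, 24.8 and 26.4 in HMD. All 3 HMD samples were below all Con samples. Its log2 fold change was -0.51 ± 0.15 (SE), with an unadjusted p of 0.00916 and an adjusted p of 0.906 by limma. Mpped1, a metallophosphoesterase-domain gene, was 54.8, 61.1 and 47.3 in Con and 36.0, 46.7 and 48.9 in HMD, and the groups overlapped. Wfs1, whose product wolframin sits in the endoplasmic reticulum membrane, spread most within Con, at 36.2, 44.4 and 21.5, and was 36.0, 29.5 and 47.2 in HMD. Its difference of 0.17 ± 0.28 on the log2 scale lay inside that spread.

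Among the dentate markers, Prox1, a homeodomain factor that granule cells need to keep their identity, was 15.4, 15.8 and 11.1 FPKM in Con and 16.7, 19.4 and 18.4 in HMD. The lowest HMD sample lay just above the highest Con sample. The log2 fold change was 0.36 ± 0.15, with an adjusted p of 0.980 by limma. Dsp, which encodes the desmosome protein desmoplakin, was 5.47, 4.91 and 4.78 in Con and 5.63, 6.10 and 5.68 in HMD, which differed by 0.17 ± 0.10 on the log2 scale. C1ql2, a secreted protein of mossy fibre synapses, was 28.6, 16.0 and 25.3 in Con and 17.1, 19.0 and 26.3 in HMD, with overlapping groups.

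Among the CA2 markers, Pcp4, a small regulator of calmodulin, was 15.9, 17.1 and 20.7 FPKM in Con and 33.6, 20.7 and 28.2 in HMD. The lowest HMD sample fell within the Con range and the other HMD samples lay above it. The log2 fold change was 0.57 ± 0.19, with an unadjusted p of 0.0169 and an adjusted p of 0.980 by limma. Amigo2, a cell adhesion protein, was 9.70, 8.22 and 7.38 in Con and 15.4, 10.1 and 7.43 in HMD, so HMD replicate 1 stood alone at the top. Rgs14, a brake on G protein signalling, was 21.8, 20.3 and 21.4 in Con and 15.0, 20.7 and 18.3 in HMD. Bok, the CA3 marker and a BCL-2 family member, was 24.7, 28.5 and 35.2 in Con and 27.6, 34.8 and 25.3 in HMD, which differed by -0.01 ± 0.17 on the log2 scale.

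Pcp4 is also expressed in thalamus and striatum. Summed FPKM of 10 thalamus-enriched genes was 24.8 to 35.6 in Con, 48.2 to 128 in HMD and 40.2 to 41.5 in Bet+HMD in the later table. HMD replicate 1 held both the highest thalamus sum and the highest Pcp4 and Amigo2. Without that sample the log2 fold change of Pcp4 in HMD against Con was 0.42. In Bet+HMD the thalamus sum lay above every Con sample while Pcp4 lay below every Con sample. The summed level of 8 striatal genes was 24.9 to 34.2 in Con, 28.9 to 38.9 in HMD and 32.4 to 33.9 in Bet+HMD. The part of thalamic or striatal tissue in the Pcp4 values was not tested.

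**Figure D2:**
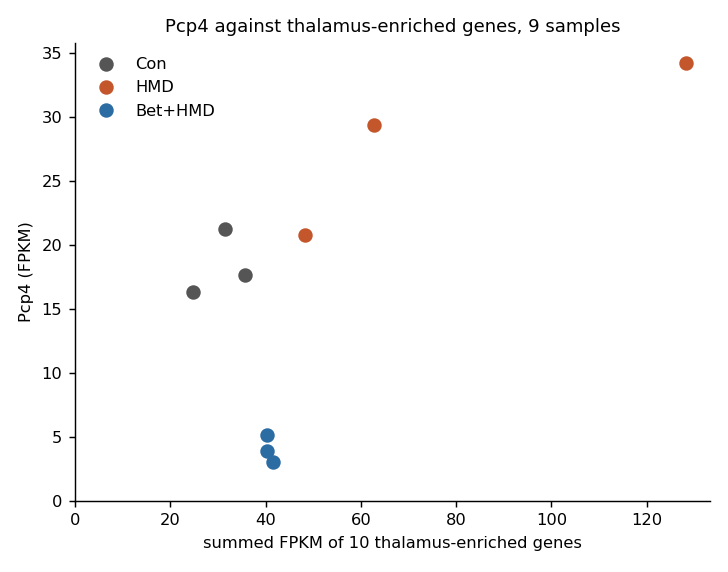
Pcp4 (vertical axis, FPKM) against the summed FPKM of 10 thalamus-enriched genes (horizontal axis) in the 9 samples of the later table; each point is a sample, coloured by group. HMD replicate 1 lies highest on both axes, and the 3 Bet+HMD samples lie at 40.2 to 41.5 on the horizontal axis with Pcp4 between 3.02 and 5.16.

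Bet+HMD was set against HMD to ask what differed once betaine was added, over 13672 genes of the later table. Of the 10 markers, 5 fell and 0 rose. The markers that fell were the 3 CA2 markers, the CA3 marker Bok and the CA1 marker Fibcd1. Of all genes, 48.3% passed the test, 22.8% higher and 25.5% lower, so a gene taken from the whole table passed about as often as a marker. Samples were fully separate for 5 of the 10 markers, against 60.1% of all genes. The median log2 fold change was -0.48 over the markers and -0.03 over all genes.

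Pcp4 was 34.2, 20.7 and 29.3 FPKM in HMD and 5.16, 3.91 and 3.02 in Bet+HMD, the lowest Bet+HMD value resting on 54 reads. The Bet+HMD mean was 14.4% of the HMD mean, and the log2 fold change was -2.52 ± 0.21 (adjusted p 0.000174 by limma). Rgs14 was 15.0, 21.3 and 18.6 in HMD and 9.95, 8.79 and 8.73 in Bet+HMD, a log2 fold change of -0.91 ± 0.13 (adjusted p 0.00117 by limma). Both genes were lower in 3 of 3 Bet+HMD samples than in any HMD sample. Amigo2 was 15.3, 10.3 and 7.69 in HMD and 5.66, 6.20 and 4.34 in Bet+HMD, a log2 fold change of -0.88 ± 0.23 (adjusted p 0.0163 by limma). Without Bet+HMD replicate 3 its adjusted p was 0.0594.

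Bok was 28.0, 35.7 and 25.9 FPKM in HMD and 9.57, 9.99 and 8.58 in Bet+HMD. The Bet+HMD mean was 31.4% of the HMD mean, a log2 fold change of -1.56 ± 0.13 (adjusted p 0.000146 by limma). Fibcd1 was 20.4, 25.1 and 26.8 in HMD and 13.0, 13.4 and 13.5 in Bet+HMD, a log2 fold change of -0.80 ± 0.10 (adjusted p 0.000893 by limma). For both, no Bet+HMD sample reached the lowest HMD sample.

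The other CA1 markers and the dentate markers did not pass. Wfs1 was 36.2, 29.8 and 48.0 FPKM in HMD and 37.1, 36.6 and 37.0 in Bet+HMD, and Mpped1 was 36.4, 48.1 and 49.5 against 44.6, 46.8 and 47.9. In both genes the Bet+HMD samples lay within the HMD range. With quantile scaling Mpped1 passed as higher, at 0.35 on the log2 scale (adjusted p 0.0313 by limma). Prox1 was 16.6, 19.9 and 18.7 against 16.1, 15.9 and 16.9, with a log2 fold change of -0.16 ± 0.08 and an adjusted p of 0.142 by limma. C1ql2 was 17.1, 19.0 and 27.1 against 18.9, 19.5 and 17.8, and Dsp was 5.78, 6.22 and 5.73 against 6.02, 5.87 and 6.27. These 5 fold changes ran from -0.16 to 0.07 on the log2 scale.

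Bet+HMD was also set against Con, over 13643 genes of the later table. Of the markers 5 fell and 0 rose, and by name they were again Pcp4, Rgs14, Amigo2, Bok and Fibcd1. This comparison shares the Bet+HMD samples with the one before. Of all genes, 39.7% passed, 19.4% higher and 20.4% lower. Samples were fully separate for 7 of the 10 markers, against 55.1% of all genes, and the median log2 fold change was -0.43 over the markers and -0.04 over all genes.

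Pcp4 was 16.3, 17.6 and 21.2 FPKM in Con, and its log2 fold change in Bet+HMD was -1.96 ± 0.17 (adjusted p 0.000462 by limma). Bok was 25.4, 28.8 and 36.3 in Con, with -1.57 ± 0.14 (adjusted p 0.000463 by limma). Fibcd1 was 40.5, 33.5 and 31.4 in Con, with -1.33 ± 0.11 (adjusted p 0.000381 by limma). The 3 genes were below every Con sample in each Bet+HMD sample. Rgs14 was 22.3, 20.4 and 22.0 in Con, with -1.15 ± 0.09 (adjusted p 0.000292 by limma). Amigo2 was 9.75, 8.33 and 7.58 in Con, with -0.58 ± 0.14 (adjusted p 0.0167 by limma). Its adjusted p was 0.0527 without Con replicate 1 and 0.0521 without Bet+HMD replicate 3.

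Dsp was 5.59, 4.95 and 4.91 FPKM in Con, below all Bet+HMD samples, with a log2 fold change of 0.20 ± 0.08 and an adjusted p of 0.0931 by limma. Mpped1 was 55.6, 62.3 and 48.6 in Con, above all Bet+HMD samples, with -0.25 ± 0.11 and an adjusted p of 0.112 by limma. Without Con replicate 3 the adjusted p of Mpped1 was 0.0175, and without Con replicate 2 that of C1ql2 was 0.00630. Prox1 (15.6, 16.1 and 11.4), C1ql2 (29.0, 16.1 and 26.0) and Wfs1 (37.0, 44.9 and 22.0) overlapped Bet+HMD, at 0.18, -0.28 and 0.15 on the log2 scale.

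**Figure D3:**
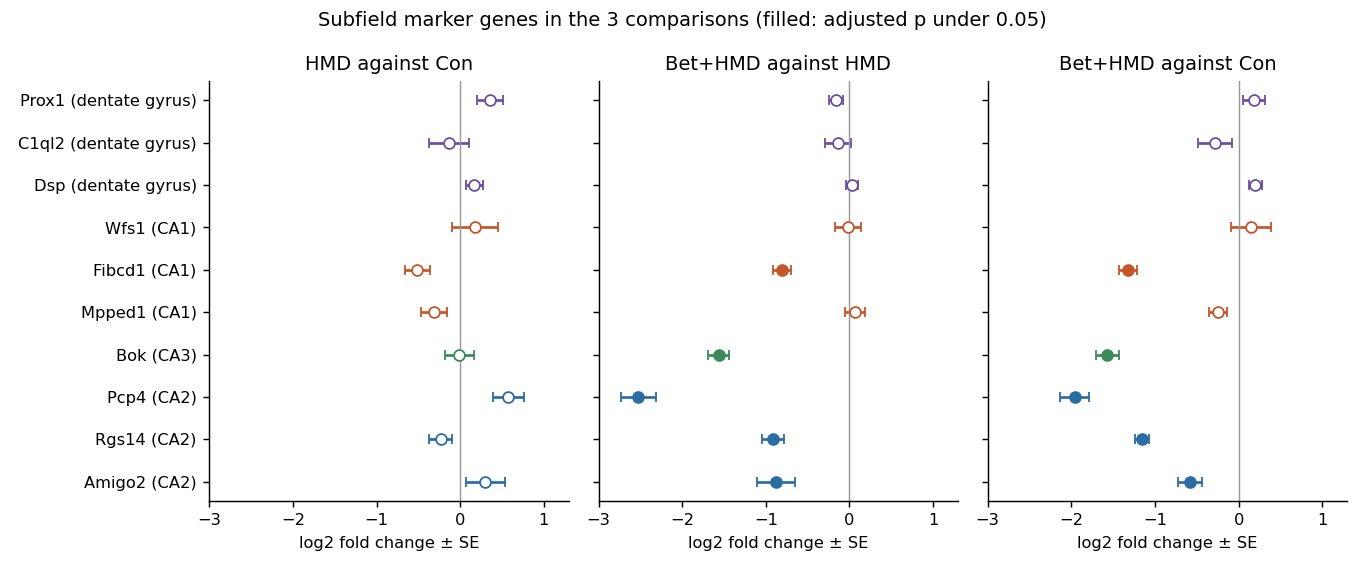
Log2 fold change on the log2(FPKM + 1) scale (horizontal axis) of the 10 markers in the 3 comparisons; bars are ± SE from limma and filled points have an adjusted p under 0.05. No point is filled in HMD against Con, and the same 5 names are filled in both comparisons with Bet+HMD, from -2.52 for Pcp4 to -0.58 for Amigo2.

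Scaling mattered for the background of these comparisons. Scaled to TPM, which sets the same total in every sample, the median of all genes was 0.16 in Bet+HMD against HMD and 0.17 against Con, and 69.5% and 73.5% of called genes were higher, where FPKM gave 47.2% and 48.8%. With voom on recovered reads these shares were 57.3% and 59.0%. Pcp4, Bok, Rgs14 and Fibcd1 were lower and passed under each of these scalings. Amigo2 against Con had an adjusted p of 0.0634 by limma on TPM. Prox1 and Dsp against Con passed there, at 0.41 and 0.44 on the log2 scale (adjusted p 0.0447 and 0.0140 by limma).

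A wider list of 32 other subfield genes was described beside the markers, of which 30 passed the filter on low values in each comparison. In HMD against Con 0 of the 30 passed the test, with a median log2 fold change of -0.04. The genes with the smallest p per field were Plk5 (dentate gyrus) at 0.45, Spink8 (CA1) at -0.37, Coch (CA3) at 0.34 and Cacng5 (CA2), an auxiliary subunit of AMPA receptors, at 0.85. Cacng5 had an adjusted p of 0.523 by limma. In Bet+HMD against HMD 5 rose and 7 fell, with a median of -0.00, and in Bet+HMD against Con 7 rose and 9 fell, with a median of -0.08. These counts, and those by field below, stand beside the 48.3% of all genes that passed against HMD, 22.8% higher and 25.5% lower. Against Con, 39.7% of all genes passed, 19.4% higher and 20.4% lower.

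In the CA2 list, 2 of 6 tested genes fell and 0 rose in each comparison with Bet+HMD. Against HMD these were Necab2, a calcium-binding protein, at -0.79 and Cacng5 at -0.79. Cacng5 averaged 3.53 FPKM in Con, 7.18 in HMD and 3.76 in Bet+HMD, and against Con it was at 0.08 (adjusted p 0.710 by limma). Against Con they were Necab2 at -0.62 and Ntf3, the neurotrophin NT-3, at -0.59. Map3k15 and Avpr1b, the vasopressin receptor used to mark CA2, stayed under the filter, and Avpr1b had a mean of 0.126 FPKM in Con.

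In the CA1 list, Spink8 fell by 1.20 against HMD and 1.55 against Con on the log2 scale, and Lefty1, a secreted inhibitor of Nodal signalling, fell by 0.53 and 0.82. Of the 8 CA1 genes, 1 rose and 2 fell against HMD, and 1 rose and 4 fell against Con. In the CA3 list, Cdh24, a cadherin, rose by 0.55 and 0.72, and it was the 1 of 5 genes to pass.

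In the dentate list, 3 of 11 genes rose and 3 fell against HMD, and 5 rose and 3 fell against Con. Glis3, a zinc finger factor, rose by 0.46 and 0.62 and Pdzd2 rose by 0.38 and 0.66. Il16, a cytokine gene, fell by 0.39 and 0.50. Npnt fell by 0.41 against HMD, and Tdo2, a tryptophan-degrading enzyme, fell by 0.48 against Con.

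**Figure D4:**
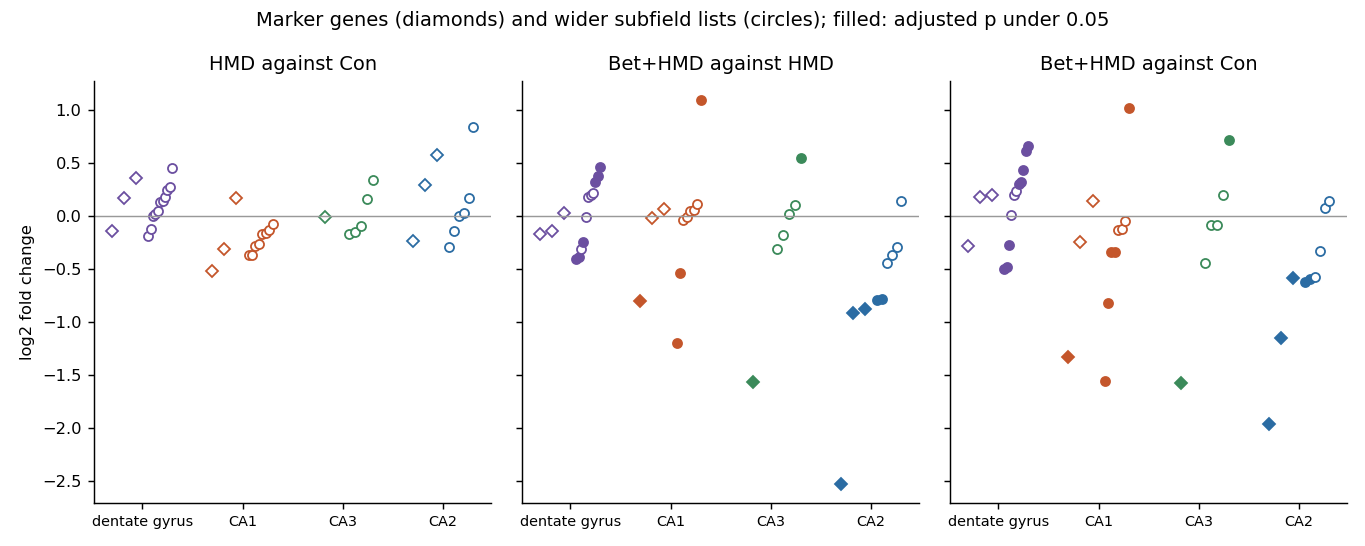
Log2 fold change on the log2(FPKM + 1) scale (vertical axis) of the markers (diamonds) and the wider lists (circles) by field, in the 3 comparisons; each point is a gene and filled points have an adjusted p under 0.05. In both comparisons with Bet+HMD the filled CA2 points all lie below 0, and the dentate circles lie on both sides of 0. Of all genes, 25.5% were called lower against HMD and 20.4% against Con.

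Marker genes of other cell types were summed beside these results, and a few abundant genes set most of each sum. In Con, HMD and Bet+HMD in turn, the summed FPKM of 5 astrocyte genes was 228 to 235, 227 to 248 and 195 to 196, and that of 6 interneuron genes was 269 to 296, 269 to 344 and 196 to 224. Endothelial genes summed to 40.6 to 50.8, 37.2 to 47.7 and 31.6 to 33.6, and 6 general neuronal genes to 786 to 895, 799 to 929 and 763 to 775. The neocortical sum was 25.8 to 35.5, 29.0 to 31.6 and 35.6 to 36.9. Oligodendrocyte genes (605 to 1032, 675 to 923 and 681 to 689), microglial genes (69.4 to 85.9, 60.3 to 71.9 and 59.7 to 63.4), choroid plexus genes (772 to 3211, 870 to 2582 and 939 to 1214) and red blood cell genes (81.0 to 133, 118 to 179 and 64.6 to 109) overlapped between Con and Bet+HMD or between HMD and Bet+HMD. Gene by gene, 2 of 5 astrocyte genes (Gfap and Gja1) and 2 of 4 endothelial genes (Cldn5 and Ly6c1) fell in each comparison with Bet+HMD, and none of either list rose. Of the 6 interneuron genes, 4 fell against HMD and 2 against Con. Of the 6 pyramidal and granule cell genes, 2 fell against HMD (Slc17a7 and Crym) and 3 against Con (Slc17a7, Crym and Nrgn), and 0 rose. Of the 6 general neuronal genes, 2 rose (Rbfox3 and Map2) and 2 fell (Tubb3 and Nefl) against HMD, and against Con 0 rose and the same 2 fell. These counts stand beside all genes tested, where 25.5% fell and 22.8% rose against HMD. Against Con, 20.4% of all genes fell and 19.4% rose. The part of these cell types in the marker values was not tested.

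Gene length and base composition were set beside the markers. The 5 that fell in Bet+HMD were 1026 to 4751 bases long and the 5 that did not pass were 2000 to 9659 bases long. Over all genes, the median log2 fold change in Bet+HMD against Con was -0.18 for genes of 1945 to 3365 bases and 0.11 for genes of 7326 to 41324 bases. With the trend over length and G and C content removed, Pcp4 was at -2.37 and Bok at -1.41 against HMD, and Prox1 passed at -0.23 (adjusted p 0.0366 by limma). Prox1, Dsp and Amigo2 overlap genes on the opposite strand and Pcp4 overlaps Igsf5 on its own strand, and whether reads were counted by strand is not given in the sources used here.

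Likeness among the markers was measured as Pearson's r of their deviations from the group means over the 9 samples of the later table, which share libraries and depth. Prox1 and Mpped1 were most alike, at 0.81, although they mark different fields. Fibcd1 was closest to Mpped1 (0.70), Wfs1 to Prox1 (0.67), Dsp to Fibcd1 (0.61), C1ql2 to Fibcd1 (0.60), Rgs14 to Fibcd1 (0.56) and Bok to Rgs14 (0.41). Pcp4 and Amigo2 were closest to each other, at 0.31. The median was 0.31 (range -0.46 to 0.70) over 9 pairs from the same field and -0.03 (range -0.81 to 0.81) over 36 pairs from different fields. Within CA2, Rgs14 had an r of -0.39 with Pcp4 and -0.46 with Amigo2. The lowest r was that of Wfs1 and Bok, at -0.81.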

How the data were processed

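Hippocampal RNA was sequenced in 9 samples, 3 per group. The authors deposited FPKM per gene, with gene length in bases, in 2 tables. The submitters' processing notes name HISAT2 2.1.0, featureCounts 1.5.0-p3 and mm10. Gene positions matched GENCODE M21 for all 10 markers. Whole reads were recovered from the deposited FPKM, since values were multiples of 1 read: 100% of values below 500 reads lay within 0.05 of a whole number. The library size behind the FPKM was 0.953 to 1.05 times the recovered total. Genes whose FPKM averaged 1 or more were tested on log2(FPKM + 1) with limma 3.58.1 (R 4.3.3), two-sided, with an intensity trend and Benjamini-Hochberg adjustment over all genes tested. Fold changes on this scale understate those of low genes. Only the 2 groups compared entered a fit. Fits were tested on simulated data with the same spread in all groups, so the closer spread of Bet+HMD was not covered. The labels do not say that replicates were separate animals, and p-values then measure the spread between these samples. With 3 against 3, an exact permutation test of a single gene could not go below 0.1 and was not used.

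All 10 markers were named in each comparison. Of the wider lists, up to 2 called genes with the largest rise and 2 with the largest fall were named per field, or the gene with the smallest p. The values of 1 gene that this rule names are not reported here, and it stays in the counts. The markers and lists were chosen with earlier results of these data known. Alternatives covered pseudocount, filter, scaling, centring, trend, grouping, recovered reads, the replicate block, protein-coding genes alone and leaving out each sample. Removal of the trend over length and base composition was added after seeing the data.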

Additional observations from a re-analysis of the deposited data

How the results depend on the processing

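Pcp4, Bok, Rgs14 and Fibcd1 stayed lower and past the threshold in Bet+HMD under each of 18 alternatives per comparison. Amigo2 passed in 17 of 18 against HMD and in 14 of 18 against Con, where its adjusted p was 0.0634 by limma on TPM and 0.0558 with all 3 groups in 1 fit. With a filter of 5 FPKM, which left fewer genes, 7 of 13 genes of the wider list were called against HMD and 6 of 11 against Con. Of all genes, that filter called 4166 of 7549 against HMD and 3260 of 7585 against Con. Without a filter, 10 genes of the wider list were called against Con, beside 5830 of 31061 genes in all. Leaving out a sample gave 6 to 12 calls in the wider list against HMD and 8 to 15 against Con. The lowest counts came without a Bet+HMD sample. Over all genes, 4782 to 4858 were called against HMD without a Bet+HMD sample and 5855 to 6990 without an HMD sample. Against Con, 3302 to 3424 were called without a Bet+HMD sample and 4654 to 6269 without a Con sample. The cause was not tested.

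Replicate numbers were not used to pair the samples in the main fits. In HMD against Con, same-numbered deviations correlated at -0.06, 0.35 and 0.32. Replicates 2 and 3 there matched their own number best, and replicate 1 did not. With Bet+HMD these correlations were -0.18 to 0.02, and no replicate matched its own number best. With the replicate block, 0, 5 and 5 markers were called in HMD against Con, Bet+HMD against HMD and Bet+HMD against Con.

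Small log2 differences changed sign, none of them called, and the cause was not tested. In HMD against Con, Bok was at 0.0105 on TPM, 0.00740 with quantile scaling and 0.0524 with the length and composition trend removed. In Bet+HMD against HMD, TPM gave Prox1 0.0266, C1ql2 0.0562 and Wfs1 0.184. Quantile scaling gave C1ql2 0.0415, Dsp -0.00601 and Wfs1 0.232 there, and Mpped1 0.0891 against Con. Trend removal gave C1ql2 0.0546 and Dsp -0.115. Wfs1 was at 0.00716 with median centring and 0.0718 with voom. Leaving out a sample gave, in HMD against Con, -0.376 to 0.0231 for C1ql2, -0.116 to 0.391 for Wfs1 and -0.137 to 0.124 for Bok. In Bet+HMD against HMD it gave -0.266 to 0.0515 for C1ql2, -0.173 to 0.163 for Wfs1 and -0.0705 to 0.145 for Mpped1. Against Con it gave -0.140 to 0.359 for Wfs1.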
